A study of Ovis aries with 6 samples.

Results

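Aquaporins are membrane channels that pass water and, in the aquaglyceroporin branch of the family, also glycerol and other small neutral solutes. The 7 genes described here, AQP1, AQP3, AQP4, AQP5, AQP7, AQP9 and AQP11, were chosen by their symbol from the 28394 genes of the deposited tables, and all 7 were present. They were measured by RNA sequencing in shoulder skin of 3 Super Merino (SM) ewes, a fine wool breed, and 3 Small Tail Han (STH) ewes, a coarse wool breed. Both groups are 9 months old by the sample labels, whereas the methods of the study give a younger age, and no treatment or genotype is stated. The ewes were kept on a single farm on the same feed, and each sheep is 1 library. By their labels the SM sheep are 128, 30034 and 30126 and those of STH are XW3, XW5 and XW8, and the values of single sheep are given in this order.

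In skin, AQP3 is known as the aquaglyceroporin of living epidermal keratinocytes, where it serves hydration of the epidermis and supplies glycerol. AQP1 is the water channel of vascular endothelium and red blood cells. AQP9 is a further aquaglyceroporin, known from leukocytes, liver and keratinocytes. AQP7 releases glycerol from adipocytes, AQP5 is a water channel of exocrine glands, AQP4 is found in astrocytes and in skeletal muscle fibres, and AQP11 is an intracellular member.

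Total counts per library ranged from 28870583 to 44645091. A gene with 3 counts had 0.0664 to 0.0993 CPM, the count scaled to the TMM-normalized size of its library, a floor that covers counting error only. Of the counts from 1 to 20 in each library, 76.4% to 80.2% were even numbers. All counts of AQP5, AQP7 and AQP11 were even. Both reads of a pair were counted, as the mapping summary of the study shows, so that the number of fragments behind a low count is usually smaller than the count. For the same reason a floor of 3 fragments would lie above the floor of 3 counts. The samples had the keratins of skin at high levels, with KRT5 of the basal epidermis at 5376 ± 632 CPM (SD, n = 3) for SM and 7003 ± 1431 (SD, n = 3) for STH sheep. As skin is a mixture of cell types, fewer cells of a type and less RNA per cell cannot be told apart in these libraries.

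The levels of the aquaporins were compared with each other on the RPKM scale of the authors, which divides by the exon length of each gene, not by its span on the chromosome. AQP3 had the highest mean level, with 52.0, 58.0 and 59.96 RPKM among the SM and 71.7, 75.5 and 74.2 RPKM among the STH sheep. AQP1 had 30.7, 43.8 and 53.5 RPKM among the SM and 43.9, 35 and 23.0 RPKM among the STH sheep. AQP3 was above AQP1 in 6 of 6 sheep, although their ranges overlapped, and the ratio of AQP3 to AQP1 lay between 1.12 (SM sheep 30126) and 3.23 (STH sheep XW8). AQP9 followed, with 6.19, 10.9 and 3.78 RPKM among the SM and 9.76, 13.9 and 11.3 RPKM among the STH sheep. Its range did not reach that of AQP1. These 3 genes made up between 97.03% and 99.1% of the summed RPKM of the 12 aquaporin family genes in the files in every sheep.

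The other 4 members were far lower. AQP11 lay between 0 and 0.541 RPKM, AQP4 between 0.0695 and 0.191, AQP5 between 0 and 0.105 and AQP7 between 0 and 0.0839. Each of these ranges overlapped with that of the next of the 4, so that their order cannot be read from the means. By comparison, AQP3 had a higher mean RPKM than 95.5% of the 15320 genes tested, AQP1 than 91.8%, AQP9 than 69.4%, AQP11 than 11.5% and AQP4 than 5.84%.

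**Figure D1:**
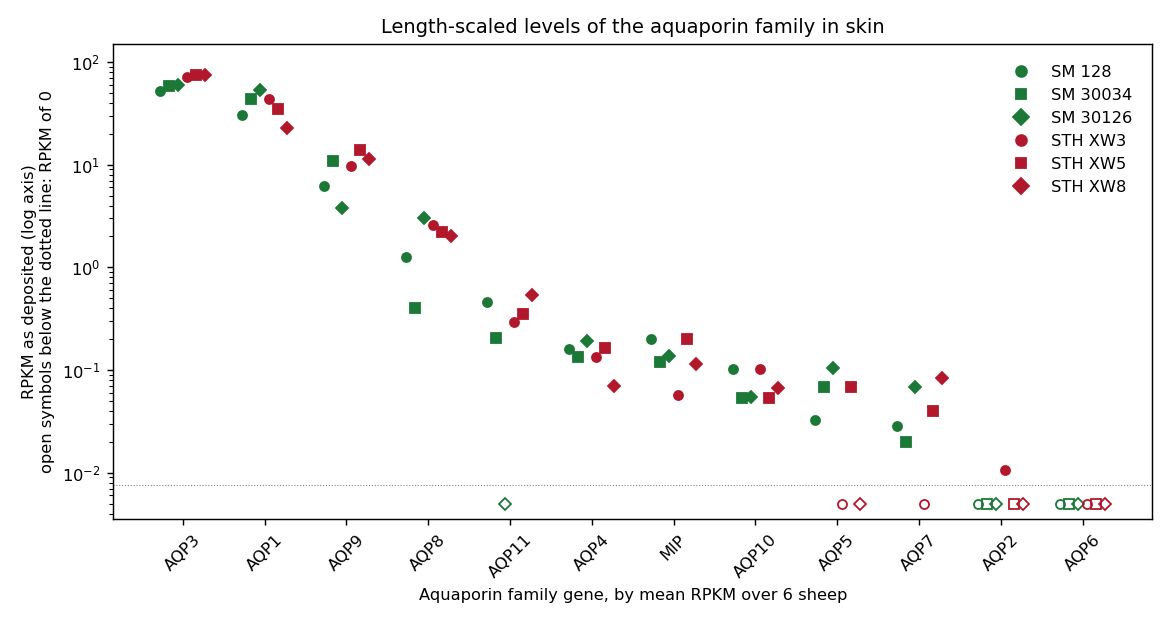
Deposited RPKM (vertical log axis) of the 12 aquaporin family genes in each of the 6 sheep, ordered by mean, with open symbols below the dotted line for an RPKM of 0. AQP3, AQP1 and AQP9 stand above the rest in every sheep, AQP8 lies between 0.406 and 3.03, and the other genes stay at or under 0.541.

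The question of the study is how the skin transcriptomes of the breeds differ. No aquaporin passed both thresholds of the comparison, which were set at 0.05 for the adjusted p and at a 1.5-fold change in either direction, in edgeR's quasi-likelihood test with Benjamini-Hochberg adjustment. The same test called 0.0% of the 15320 genes tested. Of the 7 aquaporins, 5 had at least 10 counts in at least 3 sheep and were tested. An unadjusted p under 0.05 was found for 2 of the 5, AQP3 and AQP9, both higher in STH sheep, against 10.8% of all genes tested in that direction and 18.0% in either, and for 0 of the 5 with higher levels in SM sheep, against 7.21%. For 1 of the 5, AQP3, the sheep of the breeds did not overlap, against 13.3% of all genes tested with all STH above all SM sheep. DESeq2 and the likelihood ratio test of edgeR also called 0 of the aquaporins, although over all genes tested they called 2.87% and 2.30%.

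**Figure D2:**
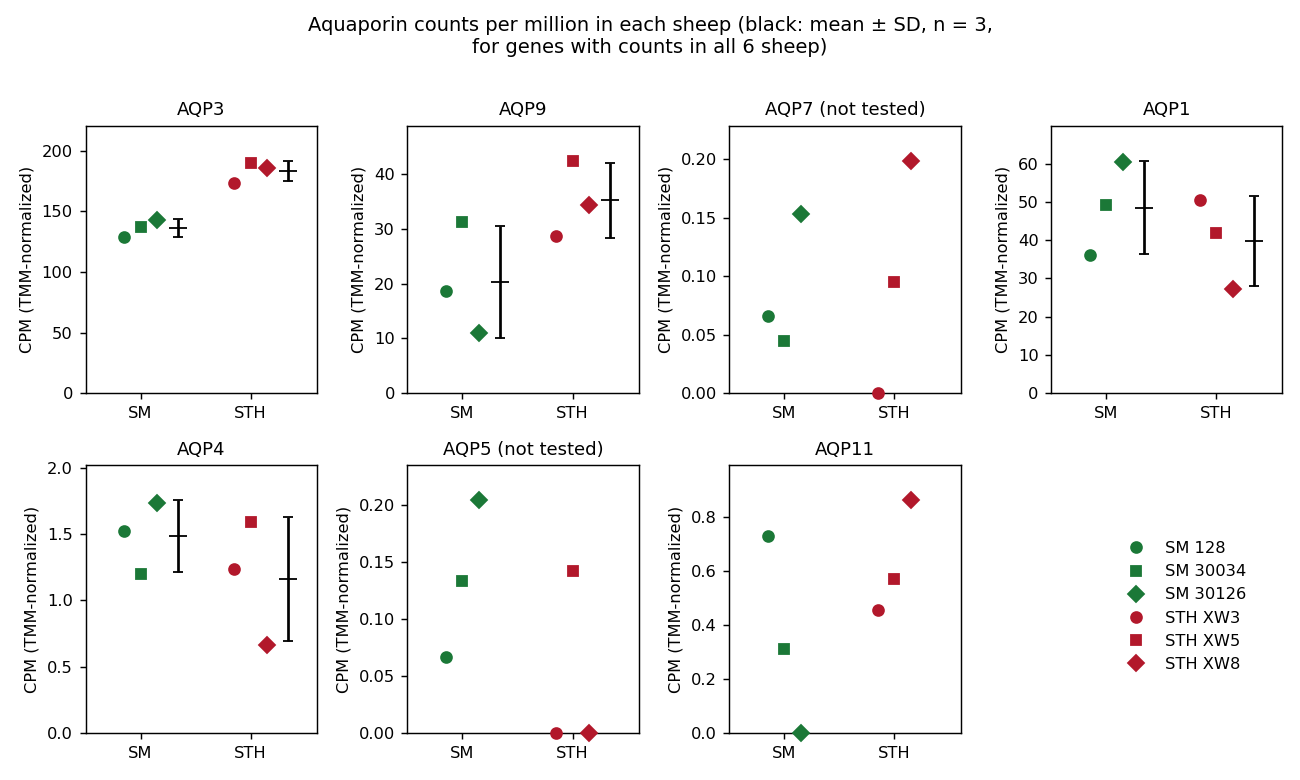
TMM-normalized CPM of each of the 7 aquaporins in SM (green) and STH (red) sheep, 1 point per sheep, each panel with its own axis from 0. The breeds are apart for AQP3 (SM up to 143, STH from 174), and overlap for the other 6 genes.

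AQP3 had 128, 137 and 143 CPM among the SM and 174, 190.03 and 186 among the STH sheep. All 3 STH sheep were above all 3 SM sheep, and the sheep within a breed were close to each other. Mean levels were 136 ± 7.22 CPM (SD, n = 3) for SM and 183 ± 8.55 CPM (SD, n = 3) for STH sheep, from 3887 to 8021 counts per library. The log2 fold change of SM over STH was -0.43 (standard error 0.13, 95% interval -0.72 to -0.14), or 1.35-fold higher in STH sheep. Its unadjusted p was 0.00909 and its adjusted p 0.247 by edgeR's quasi-likelihood test. The size of the change is below the fold threshold, so that AQP3 could not pass it whatever its p.

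The spread of AQP3 among sheep of a breed was small, with a coefficient of variation of CPM of 5.31% in SM and 4.67% in STH sheep. Its within-breed SD of log2 CPM was 0.07, where the median over all genes tested was 0.27, and 97.7% of the genes tested had a larger SD. AQP1, AQP4, AQP9 and AQP11 had within-breed SDs of 0.42, 0.47, 0.57 and 1.43. The genes were not matched for level in these comparisons. AQP3 had at least 3887 counts in every sheep, whereas AQP4 had at most 68 and AQP11 at most 26. With 1 sheep left out at a time, the log2 fold change of AQP3 stayed between -0.47 and -0.39. Its unadjusted p was under 0.05 in 17 of 17 alternative analyses, and its adjusted p lay between 0.0555 (DESeq2) and 0.627 (without STH sheep XW5).

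AQP3 lies on the plus strand of chromosome 2 of Oar_v4.0, from 37540127 to 37546508. The next aquaporin, AQP7, starts 38.78 kb further on the same strand and runs from 37585289 to 37601714, and no other gene of the files lies between them. Their levels in skin were unlike. AQP7 had 2, 2 and 6 counts among the SM and 0, 4 and 6 among the STH sheep, 20 in all. The values of both breeds were near the floor of 3 counts, and no fold change was calculated.

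Lists of genes that mark cell types of skin were set beside the aquaporins, as a description. Values given for a list gene are its log2 fold change of SM over STH, negative where the gene was more highly expressed in STH sheep, and a list median is the median of these. Counts of list genes with an unadjusted p under 0.05 stand beside 18.0% of all genes tested. Of all genes tested, 7.21% had such a p with higher levels in SM and 10.8% with higher levels in STH sheep. Counts of list genes by direction alone stand beside 51.4% of all genes tested with higher levels in SM sheep. Of 8 basal keratinocyte genes tested, 7 had lower levels in SM than STH sheep. The log2 fold change had a median of -0.28 over the list and of 0.02 over all genes tested, and 2 of the list had an unadjusted p under 0.05, both higher in STH sheep. These 2 were LOC101118459, which the RefSeq name table gives as KRT14, the basal partner of KRT5, at -0.51 (standard error 0.20), and LOC101113020, given as DST, an anchor of keratins to hemidesmosomes, at -0.65 (standard error 0.27). ITGB4, the hemidesmosomal integrin, was at 0.08 (standard error 0.13). The summed level of the 8 genes lay between 10159.7 and 12369.8 CPM in SM and between 12209.8 and 16768 in STH sheep.

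Of 7 suprabasal keratinocyte genes tested, 5 had an unadjusted p under 0.05, all higher in STH sheep, and the list median was -0.89. KRT10, the keratin of differentiating epidermis, was at -1.34 (standard error 0.29), and IVL, a precursor of the cornified envelope, at -1.05 (standard error 0.20). KRTDAP, a secreted keratinocyte protein, was at 0.07 (standard error 0.26). The summed level lay between 3836 and 4691 CPM in SM and between 5101 and 9106 in STH sheep, without overlap. No gene of either keratinocyte list passed at an adjusted p of 0.05 by edgeR's quasi-likelihood test, nor did any other gene, as the smallest adjusted p was 0.0606. The study, with its own use of edgeR on these sheep, reported KRT1, KRT10 and IVL as higher in STH sheep.

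Sebaceous gland cells are also known to carry AQP3. Of 10 sebaceous genes tested, 7 had an unadjusted p under 0.05, all higher in SM sheep, with a list median of 1.03. DGAT2L6, an acyltransferase of sebum, was at 2.38 (standard error 0.28) and FA2H, the fatty acid 2-hydroxylase, at 0.99 (standard error 0.23), whereas MOGAT1, a monoacylglycerol acyltransferase, was at -0.12 (standard error 0.31). The summed level was between 1963 and 2789 CPM in SM and between 980.03 and 1676 in STH sheep. The direction of this list was thus opposite to that of AQP3.

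AQP3 was then expressed relative to each list, as its log2 CPM minus the mean log2 CPM of the list in the same sheep. Relative to the basal keratinocyte genes it was -2.40 ± 0.12 (SD, n = 3) for SM and -2.25 ± 0.07 (SD, n = 3) for STH sheep, a difference of -0.15 (exact two-sided permutation test, p = 0.2, adjusted p = 0.35 over 7 comparisons). Relative to the suprabasal genes it was -2.00 ± 0.18 (SD, n = 3) and -2.28 ± 0.35 (SD, n = 3), a difference of 0.29 in the other direction (exact permutation p = 0.3, adjusted p = 0.42). Relative to the sebaceous genes it was 0.49 ± 0.36 (SD, n = 3) and 1.92 ± 0.33 (SD, n = 3), with all STH above all SM sheep (exact permutation p = 0.1, the smallest that 3 sheep against 3 allow, adjusted p = 0.233). The mean log2 CPM of the sebaceous list was itself 6.60 for SM and 5.59 for STH sheep. The study had reported several of its genes, DGAT2L6 and FA2H among them, as higher in SM sheep. The direction of this comparison was thus largely set by the list. Against the median of the lists in place of the mean, the differences were -0.33 for the basal (exact permutation p = 0.1) and 0.45 for the suprabasal genes (exact permutation p = 0.3). The part of the cell makeup of the samples in the difference of AQP3 was not tested.

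AQP9 had 18.6, 31.2 and 10.96 CPM among the SM and 28.7, 42.4 and 34.4 among the STH sheep. The breeds overlapped, since SM sheep 30034 was above STH sheep XW3, and SM sheep 30126 was the lowest of the 6. Mean levels were 20.2 ± 10.2 CPM (SD, n = 3) for SM and 35.2 ± 6.87 CPM (SD, n = 3) for STH sheep, and the log2 fold change was -0.80 (standard error 0.34, 95% interval -1.57 to -0.02), or 1.74-fold higher in STH sheep. The unadjusted p was 0.0450 and the adjusted p 0.272 by edgeR's quasi-likelihood test. The value rested on single SM sheep, with -0.48 without sheep 30126 and -1.26 without sheep 30034. The unadjusted p was under 0.05 in 11 of 17 alternative analyses and ranged up to 0.133 (without STH sheep XW5). The gene runs from 49054998 to 49106411 on the minus strand of chromosome 7.

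Of 8 myeloid cell genes tested, 1 had an unadjusted p under 0.05, and it was higher in SM sheep, opposite to AQP9, with a list median of 0.22. It was CSF3R, the receptor of granulocyte colony-stimulating factor, at 1.82 (standard error 0.34), while CSF1R, the macrophage receptor, was at 0.28 (standard error 0.18) and TYROBP, a myeloid signalling adaptor, at -0.12 (standard error 0.21). ITGAM, an integrin of neutrophils and macrophages, was at -0.05 (standard error 0.22). The summed level of the 8 genes was between 152 and 196 CPM in SM and between 138 and 155 in STH sheep. AQP9 relative to the mean of these genes was 0.74 ± 0.67 (SD, n = 3) for SM and 2.04 ± 0.22 (SD, n = 3) for STH sheep on the log2 scale. No SM sheep reached the lowest STH sheep (exact permutation p = 0.1, adjusted p = 0.233 over 7 comparisons).

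The difference of AQP9 was -1.30 against the mean of the myeloid genes and -0.88 against their median, where the exact permutation p was 0.3. A comparison with the keratinocyte lists was added after seeing the data. Relative to the basal keratinocyte genes AQP9 differed by -0.63 between the breeds (exact permutation p = 0.3, adjusted p = 0.6 over 2 comparisons), and relative to the suprabasal genes by -0.19 (exact permutation p = 0.7, adjusted p = 0.7).

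**Figure D3:**
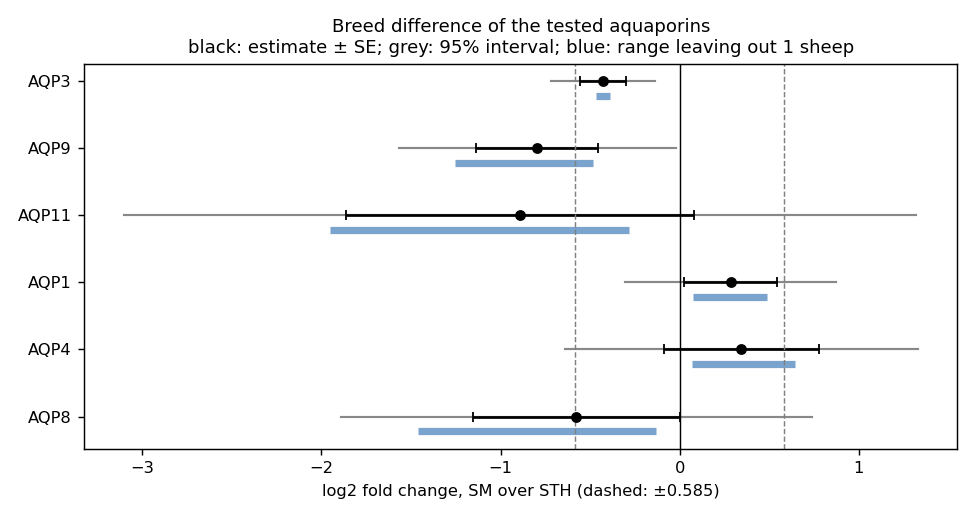
Log2 fold change of SM over STH (horizontal axis) for the 5 aquaporins tested and for AQP8, with the standard error (black), the 95% interval (grey), dashed lines at a 1.5-fold change and the range as each sheep was left out (blue). AQP3 and AQP9 have intervals below 0, AQP3 with the narrowest range, from -0.47 to -0.39, and the intervals of the other 4 genes hold 0.

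AQP1 had 36.0, 49.1 and 60.5 CPM among the SM and 50.4, 41.8 and 27.3 among the STH sheep. The breeds overlapped widely, with the highest value in an SM and the lowest in an STH sheep. The means were 48.5 ± 12.3 CPM (SD, n = 3) and 39.9 ± 11.7 (SD, n = 3), and the log2 fold change was 0.28 (standard error 0.26, 95% interval -0.31 to 0.87, adjusted p = 0.532 by edgeR's quasi-likelihood test). It stayed above 0 as each sheep was left out, from 0.07 (without STH sheep XW8) to 0.49 (without STH sheep XW3). AQP1 lies on the minus strand of chromosome 4 from 65363138 to 65374815.

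AQP1 was set beside the genes of vascular endothelium. Of 8 endothelial genes tested, 7 were higher in SM sheep, with a list median log2 fold change of 0.32, and 3 had an unadjusted p under 0.05. CDH5, the cadherin of endothelial junctions, was at 0.68 (standard error 0.24) and VWF, the von Willebrand factor, at 0.66 (standard error 0.21), both higher in SM sheep, whereas EMCN, a sialomucin of capillaries and veins, was at -0.61 (standard error 0.20). The summed level of the 8 genes was between 576 and 720 CPM in SM and between 374 and 610 in STH sheep.

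Relative to these genes, AQP1 was -0.03 ± 0.36 (SD, n = 3) for SM and -0.05 ± 0.11 (SD, n = 3) for STH sheep on the log2 scale, a difference of 0.03 (exact permutation p = 0.9, adjusted p = 0.9 over 7 comparisons). Of the erythroid genes listed only SLC4A1, the anion exchanger of red cells, and EPB42, a protein of the red cell membrane skeleton, had enough counts, at -0.03 (standard error 0.25) and -0.70 (standard error 0.97). Relative to these 2 genes the difference of AQP1 was 0.75 (exact permutation p = 0.5, adjusted p = 0.583). The list median of the erythroid genes was -0.37, their summed level was 4.61 to 5.81 CPM for SM and 4.54 to 6.75 CPM for STH sheep, and the globin genes were not analysed here.

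**Figure D4:**
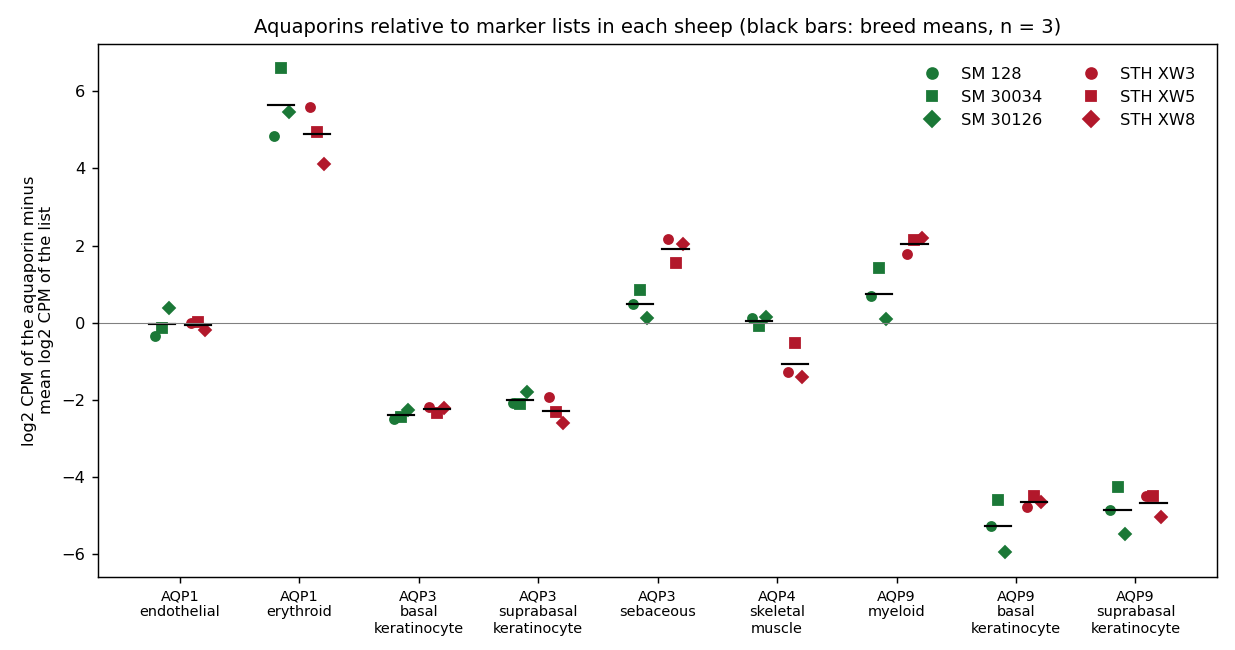
Log2 CPM of an aquaporin minus the mean log2 CPM of a marker list in the same sheep (vertical axis), for 7 pairs and the 2 added pairs of AQP9 with keratinocyte lists, with black bars for breed means. AQP1 is level with the endothelial genes in both breeds, while the STH sheep lie wholly above the SM sheep for AQP3 against the sebaceous and AQP9 against the myeloid list, and below them for AQP4 against the skeletal muscle list. The mean levels of the sebaceous, myeloid and skeletal muscle lists themselves differed between the breeds.

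AQP4 was low but above the floor of 3 counts in every sheep, with 46, 54 and 68 counts among the SM and 38, 67 and 20 among the STH sheep. In CPM these were 1.52, 1.196 and 1.73 in SM and 1.23, 1.59 and 0.662 in STH sheep, so that the breeds overlapped and STH sheep XW8 was lowest. The log2 fold change was 0.34 (standard error 0.43, 95% interval -0.64 to 1.33, adjusted p = 0.652 by edgeR's quasi-likelihood test), with 0.07 without XW8 and 0.64 without STH sheep XW5. The gene is on the plus strand of chromosome 23 from 30281057 to 30295657.

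The skeletal muscle genes were also low, apart from CKM, the muscle creatine kinase. Of 9 listed, 8 were in the files and 5 could be tested, and 1 had an unadjusted p under 0.05, ACTA1, the skeletal muscle actin, at -2.18 (standard error 0.58), with a list median of -0.35. MYH7, the slow myosin heavy chain, was at -1.28 (standard error 0.82) and TNNI2, the fast troponin I, at 0.52 (standard error 0.33). The summed level of the 5 genes was 28.0 to 41.7 CPM for SM and 36.3 to 44.4 CPM for STH sheep. CKM held most of this sum, with a mean of 29.6 CPM for SM and 31.1 CPM for STH sheep. AQP4 relative to the mean log2 CPM of the 5 genes was 0.06 ± 0.12 (SD, n = 3) for SM and -1.07 ± 0.48 (SD, n = 3) for STH sheep (exact permutation p = 0.1, adjusted p = 0.233 over 7 comparisons). With the median of the list the p was 0.3.

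AQP11 had 22, 14 and 0 counts among the SM and 14, 24 and 26 among the STH sheep. For the 0 of SM sheep 30126, in a library of 42616110 counts, the floor of 3 counts was 0.0764 CPM. As both reads of a pair were counted, the level that such a 0 allows is higher than this floor. The other 5 sheep lay between 0.310 and 0.861 CPM, with the breeds overlapping. The log2 fold change of -0.89 (standard error 0.97, 95% interval -3.10 to 1.32, adjusted p = 0.601 by edgeR's quasi-likelihood test) rested on that sheep, since it was -0.28 without it and -1.95 without SM sheep 128. AQP11 is on the minus strand of chromosome 21 from 17719910 to 17731725.

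AQP5, the gland channel, had 2, 6 and 8 counts among the SM and 0, 6 and 0 among the STH sheep, 22 in all. At this depth no difference between the breeds could be measured. The genes listed for secretory gland epithelium had summed levels of 306 to 539 CPM for SM and 346 to 463 CPM for STH sheep. Of 6 tested, 0 had an unadjusted p under 0.05, and the list median was -0.03. Among them KRT8 and KRT18, the paired keratins of simple epithelia, were at 0.37 (standard error 0.25) and 0.28 (standard error 0.48), FOXA1, a transcription factor of glandular epithelium, at -0.42 (standard error 0.57), and SLC12A2, the cotransporter that drives fluid secretion, at -0.64 (standard error 0.29). AQP5 lies on the minus strand of chromosome 3 from 135974463 to 135978295, between AQP6 and AQP2. AQP6 was at 0 counts in all 6 sheep, where the floor of 3 counts was at most 0.0993 CPM and a floor of 3 fragments would be higher. AQP2 had 2 counts in 1 sheep.

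The low counts of AQP7 can be set beside the adipocyte genes. Of 9 listed, 8 were tested, 1 of them with an unadjusted p under 0.05 and higher levels in SM and 2 with higher levels in STH sheep, and the list median was -0.22. Their summed level was 93.0 to 124 CPM for SM and 178 to 233 CPM for STH sheep. FABP4, the fatty acid carrier of adipocytes, had a mean of 40.0 ± 19.6 CPM (SD, n = 3) among SM and of 144 ± 21.9 CPM (SD, n = 3) among STH sheep, where it held most of the sum, and its log2 fold change was -1.84 (standard error 0.31). LPL, the lipoprotein lipase, was at -0.97 (standard error 0.38). PPARG, the adipogenic receptor that also acts in sebaceous cells, was at 0.55 (standard error 0.18) and CIDEC, a lipid droplet protein, at 0.40 (standard error 0.42). PLIN1 and ADIPOQ, which define adipocytes more closely, overlapped between the breeds. PLIN1 had a mean of 1.21 ± 0.604 CPM (SD, n = 3) among SM and of 1.10 ± 0.243 CPM (SD, n = 3) among STH sheep, at 0.14 (standard error 0.47). ADIPOQ had a mean of 2.44 ± 3.33 CPM (SD, n = 3) among SM and of 4.54 ± 3.64 CPM (SD, n = 3) among STH sheep, at -0.88 (standard error 1.00). LEP, the adipocyte hormone, had at most 12 counts in any sheep.

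Of the aquaporins outside the 7, AQP8, known from liver, pancreas and intestine, was the highest. It had 101, 46 and 301 counts among the SM and 205, 250 and 162 among the STH sheep. In RPKM it was above AQP11 in 6 of 6 sheep. The SM sheep spread from 1.02 to 7.67 CPM and enclosed the STH sheep, which lay between 5.36 and 6.65. Its log2 fold change came to -0.58 (standard error 0.58, 95% interval -1.89 to 0.74, adjusted p = 0.567 by edgeR's quasi-likelihood test), with -1.46 without SM sheep 30126 and -0.13 without SM sheep 30034. MIP, the lens aquaporin, and AQP10, known from intestine, had 2 to 10 and 8 to 12 counts per sheep and were not tested.

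Genes that handle glycerol, the second substrate of AQP3, AQP7 and AQP9, gave no common direction, and the list median was 0.00. Of 12 listed 11 were tested, 6 higher in SM and 5 in STH sheep. Only MGLL, the monoacylglycerol lipase, had an unadjusted p under 0.05, at 0.68 (standard error 0.21, adjusted p = 0.247 by edgeR's quasi-likelihood test), where 18.0% of all genes tested did. PNPLA2, the adipose triglyceride lipase, was at 0.31 (standard error 0.17), GPD2, the mitochondrial glycerol-3-phosphate dehydrogenase, at -0.51 (standard error 0.23), and GK, the glycerol kinase, at -0.25 (standard error 0.22). GK2, the glycerol kinase of testis, was at 0 counts in every sheep.

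For epithelial ion transport 12 of 12 genes were tested and 1 had an unadjusted p under 0.05, SLC4A4, a sodium bicarbonate cotransporter, at -0.58 (standard error 0.19). KCNN4, a calcium-activated potassium channel, was at 0.88 (standard error 0.53), with a list median of 0.06. For the regulators and anchors of aquaporins 11 of 11 were tested, with a median of 0.00, and 1 had an unadjusted p under 0.05. It was NFAT5, the transcription factor of the osmotic stress response, at -0.92 (standard error 0.40). Its means were 106 ± 69.7 CPM (SD, n = 3) for SM and 202 ± 44.6 CPM (SD, n = 3) for STH sheep, and the breeds overlapped. STK39, a kinase of the response to cell volume, was at -0.44 (standard error 0.24). PRKACA, the catalytic subunit of protein kinase A, was at 0.38 (standard error 0.22) and WNK1, a chloride-sensing kinase, at 0.18 (standard error 0.15).

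The smooth muscle and Schwann cell lists, which mark other cells of the dermis, were read as well. Of 6 smooth muscle genes tested, 5 had an unadjusted p under 0.05, all higher in STH sheep, with MYH11, the smooth muscle myosin, at -1.05 (standard error 0.13) and DES, desmin, at -1.32 (standard error 0.22), and a list median of -0.68. Of 6 Schwann cell genes tested, 1 did, CDH19, a cadherin of that lineage, at -1.02 (standard error 0.21), while PMP22, a myelin protein, was at 0.19 (standard error 0.17), with a list median of 0.14. Summed levels were 1112 to 1332 CPM for SM and 1761 to 2243 CPM for STH sheep in the smooth muscle list, and 139 to 188 CPM and 121 to 172 CPM in the Schwann cell list. The part of these cells in the aquaporin levels was not tested.

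The genes whose levels over the 6 sheep were most like each aquaporin were named by Pearson's r of log2 CPM, as a description without a test. With only 6 sheep high values are common, and the number of genes with an r over 0.9 was 145 for AQP3, 232 for AQP1, 394 for AQP9, 78 for AQP4 and 1003 for AQP11. Nearest to AQP3 were HEATR4, LOC101105258 and OSBPL6, with r of 0.997, 0.996 and 0.990. Nearest to AQP9 were CLCA2, a chloride channel regulator of stratified epithelia, MAPRE1, a microtubule end-binding protein, and SLC38A9, a lysosomal amino acid sensor, with r of 0.996, 0.996 and 0.994.

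CLCA2 had 83.4, 111 and 56.0 CPM among the SM and 107, 149 and 127 among the STH sheep, the same order of sheep as AQP9. Nearest to AQP1 were PEBP1, OSBPL10 and PLTP, the phospholipid transfer protein, with r of 0.995, 0.994 and 0.990. Nearest to AQP4 were LOC101114805, CAMK4 and PRRC2B, with r of 0.989, 0.989 and 0.984, and nearest to AQP11 SRSF12, LOC101118051 and LOC105610652, with r of 0.997, 0.996 and 0.996.

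As shares of the summed RPKM of the aquaporin family, AQP3 made up 52.6% ± 3.94 (SD, n = 3) for SM and 60.5% ± 5.55 (SD, n = 3) for STH sheep, AQP1 38.8% ± 5.31 (SD, n = 3) and 27.4% ± 6.77 (SD, n = 3), and AQP9 6.50% ± 3.22 (SD, n = 3) and 9.54% ± 1.72 (SD, n = 3). The breeds overlapped in each of these shares (exact two-sided permutation test, p = 0.2 for each, adjusted p = 0.267 over 4 comparisons). The summed RPKM of the 7 aquaporins was 107 ± 15.1 (SD, n = 3) for SM and 120.0 ± 9.34 (SD, n = 3) for STH sheep (exact permutation p = 0.3, adjusted p = 0.3).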

How the data were processed

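The authors checked the reads with FastQC and mapped them to Oar_v4.0 in CLC Genomics Workbench, and the tables of the 6 sheep were deposited separately. The deposited total counts are whole numbers without normalization and gave every test across genes. RPKM values deposited by the authors were used only to compare levels between genes, for shares of the family and in alternatives. The deposited TPM, and the deposited score called CPM, which is scaled to an effective library size, were not used.

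A gene was tested if 3 or more sheep had 10 or more counts (15320 of 28394). Counts were normalized by TMM and compared by the quasi-likelihood test of edgeR 4.0.16 in R 4.3.3 with breed as the only term, with p adjusted over all genes tested. The standard error is the log2 fold change divided by the square root of F. Log2 CPM has a prior count of 2. The members and lists were chosen with earlier results of these data known. Genes named are all aquaporins, the 2 of each list with the smallest p in each direction, and the 3 most correlated with each tested aquaporin, apart from some list genes that are not reported here. KRT5, CKM, PLIN1, ADIPOQ, LEP and GK2 were named after their values were seen. Of the listed symbols, 6 were matched through the RefSeq name table. AQP5 and AQP7 were too low to be set against their lists. On simulated counts of 15160 genes the test recovered 53 of 100 genes changed by a log2 of 1 and 97 of 100 changed by 2, with 14 false calls. The changed genes were drawn only from those at higher levels. The simulation therefore does not cover genes as low as AQP4 and AQP11, or changes as small as that of AQP3. Its counts were also drawn independently for each gene, so that the share recovered does not carry over to these sheep. In the data themselves DGAT2L6, at a log2 fold change of 2.38, had an adjusted p of 0.0853 by edgeR's quasi-likelihood test and was not called. Alternatives used DESeq2 1.42.0, limma 3.58.1, the likelihood ratio and exact tests of edgeR, other filters and normalization, a loess correction (span 0.5) for relative exon length, taken from count over RPKM, and each sheep left out in turn. P-values of the fits across genes rest on the spread between these sheep, moderated by the spread of the other genes. Small comparisons used exact two-sided permutation tests in scipy 1.17.1.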

Additional observations from a re-analysis of the deposited data

How the results depend on the processing

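In 17 alternative analyses 0 aquaporins passed both thresholds, and none of the 84 log2 fold changes of the 5 tested aquaporins changed sign, AQP11 being too low to test with a minimum of 1 CPM in 3 sheep. The number of all genes past both thresholds, 0 in the quasi-likelihood test (2762 at an unadjusted p under 0.05), was 439 with DESeq2, 352 with the likelihood ratio test, 329 with the exact test, 2 without a count filter, 11 on log2(RPKM + 0.1) with limma and 8 with the length trend removed. As each sheep was left out it ranged from 0 to 1175, the latter without SM sheep 128. The cause was not tested. Of the log2 differences between aquaporins and lists, all 21 alternative values kept their sign. Another normalization shifts an aquaporin and its list almost alike, so that only the 7 values against the list median could move clearly. Of the medians of the lists, 244 of 255 moved by less than the spread between sheep. Those that moved more belonged to the skeletal muscle, glycerol, ion transport and regulator lists. The largest shift of the median of all genes under an alternative was 0.062, with the length trend removed. No paired analysis was possible because the sheep labels pair no SM with an STH sheep. Depth limits AQP5, AQP7 and AQP11, whose counts are at most 26 per sheep.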
